A study of Rattus norvegicus with 16 samples.

Results

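A set of 10 genes that mark T cells and cytotoxic lymphocytes were followed in the normal distal colon of wildtype and Pirc rats, with and without earlier dextran sodium sulfate (DSS). They were Cd3d, Cd3e, Cd3g, Cd4, Cd8a, Cd8b, Cd2, Gzmb, Prf1 and Klrd1, and they were chosen by name, as the non-control probes whose RefSeq transcript belongs to 1 of these rat symbols. They made up 10 of 15159 named genes and 11 of 30367 probes, because Gzmb had 2 probes and the others 1 each. The 16 male rats were offspring of an (ACIxF344)F1 cross, all 97 days old, and fell into 4 groups of 4 rats. Wildtype and Pirc/+ rats either stayed untreated or drank 4% DSS from day 40 to day 47 and again from day 54 to day 61, so that the tissue was taken 36 days after the last DSS. DSS is a sulfated polysaccharide that injures the colonic epithelium and inflames the colon. The Pirc allele is a germline truncating mutation of the tumour suppressor Apc, present in every cell as a heterozygous allele, and Pirc/+ rats develop colonic adenomas. The tissue analysed was labelled normal colon, each array held the RNA of 1 rat, and no source used here says that cells were sorted.

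The CD3 chains are invariant parts of the T cell receptor complex, which carries the antigen signal into the cell. CD4 and CD8 are the co-receptors of helper and cytotoxic T cells, CD2 is an adhesion receptor of T and natural killer cells, and perforin and granzyme B are the pore-forming protein and the protease that cytotoxic lymphocytes release to kill a target cell. Klrd1 (CD94) forms receptors with the NKG2 chains on natural killer cells and some T cells. The healthy colon holds T cells between the epithelial cells, many of them CD8-positive with granules, and in the lamina propria beneath.

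Promoter sequences are shown for the 3 members that passed the test in at least 1 comparison by their main probe (Cd2, Prf1 and Cd3g), for Gzmb, whose second probe passed, and for Cd3d, the neighbour of Cd3g. The sequences are those of RefSeq on the rat build GRCr8, from 250 bases before the annotated start to 50 bases after it, and 7 of the 10 genes were found in that table. Capitals mark the core of the RUNX factors (TGTGGT) and the core of the ETS factors (AGGAAG), each searched on both strands. Among 33465 promoters of the same length, 17.3% held the RUNX core and 34.5% the ETS core. The start sites of Cd3g and Cd3d lie 1601 bases apart on opposite strands, Cd3g at chr8:54183869-54184168 on the minus strand and Cd3d at chr8:54185269-54185568 on the plus strand. The Cd2 window is chr2:191412610-191412909 (minus strand), that of Gzmb is chr15:34462420-34462719 (minus strand) and that of Prf1 is chr20:29788790-29789089 (plus strand).
Cd3g: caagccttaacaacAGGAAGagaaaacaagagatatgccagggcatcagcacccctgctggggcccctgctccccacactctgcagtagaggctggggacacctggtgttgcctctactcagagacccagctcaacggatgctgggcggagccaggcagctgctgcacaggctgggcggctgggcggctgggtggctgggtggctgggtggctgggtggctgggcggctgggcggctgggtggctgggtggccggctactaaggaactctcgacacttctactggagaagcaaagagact
Cd3d: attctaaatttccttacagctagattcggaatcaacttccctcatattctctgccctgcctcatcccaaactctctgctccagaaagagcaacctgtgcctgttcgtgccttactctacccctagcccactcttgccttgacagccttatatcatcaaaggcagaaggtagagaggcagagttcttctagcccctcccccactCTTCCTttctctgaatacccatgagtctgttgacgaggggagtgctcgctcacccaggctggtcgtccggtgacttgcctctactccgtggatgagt
Cd2: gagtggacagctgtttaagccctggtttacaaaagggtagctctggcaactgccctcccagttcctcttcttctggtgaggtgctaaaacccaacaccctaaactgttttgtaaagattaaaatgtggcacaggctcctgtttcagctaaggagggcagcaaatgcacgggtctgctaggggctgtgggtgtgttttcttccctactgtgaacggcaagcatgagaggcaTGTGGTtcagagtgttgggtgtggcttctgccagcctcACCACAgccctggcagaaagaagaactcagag
Gzmb: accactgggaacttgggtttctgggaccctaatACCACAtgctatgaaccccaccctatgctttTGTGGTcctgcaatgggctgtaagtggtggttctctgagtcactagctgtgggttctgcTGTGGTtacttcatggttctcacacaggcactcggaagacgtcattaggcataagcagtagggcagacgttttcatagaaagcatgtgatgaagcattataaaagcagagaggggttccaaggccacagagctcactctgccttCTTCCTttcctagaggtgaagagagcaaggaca
Prf1: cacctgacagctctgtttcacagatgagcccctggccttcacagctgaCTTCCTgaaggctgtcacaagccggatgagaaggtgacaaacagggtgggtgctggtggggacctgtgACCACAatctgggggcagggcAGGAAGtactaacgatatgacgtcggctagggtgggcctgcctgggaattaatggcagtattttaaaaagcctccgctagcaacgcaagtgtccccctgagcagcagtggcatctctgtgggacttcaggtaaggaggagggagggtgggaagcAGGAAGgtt
The Cd2 window held 2 RUNX cores and no ETS core, with the RUNX cores at -20 to -15 and 19 to 24 from the start. Gzmb held 3 RUNX cores and 1 ETS core, and Prf1 held 1 RUNX core and 3 ETS cores. Cd3g and Cd3d each held 1 ETS core and no RUNX core. These matches describe the letters only.

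All levels below are the log2 of the processed signal minus the log2 of the 75th percentile of the same array, so that 0 is the brightness of the 75th percentile spot. The brightness of a probe depends on its sequence as well as on its transcript, so that levels of different genes are not an order of abundance. The median 75th percentile signal was 1980.25 (range 1063.3 to 2194) for Pirc rats without DSS and 1579.7 (range 875.36 to 1829) for those given DSS. For wildtype rats it was 1386.75 (range 1247.7 to 1433.3) without DSS and 1221.55 (range 1086.1 to 1249.5) with it. The share of spots well above background ran from 71.11% to 80.32% per array, with 0 saturated spots. Of the 10 genes, 5 (Cd3d, Cd3g, Cd4, Cd8b and Gzmb) were well above background on all 16 arrays, and Klrd1 was not on any. Over all probes, 14 of the 16 rats correlated best with a rat of their own group. The exceptions were DSS-treated wildtype rat 26, whose nearest array was untreated wildtype rat 25 (r = 0.9882, against 0.9853 for the best of its own group), and untreated Pirc rat 23, also nearest to rat 25 (0.988 against 0.9872). Wildtype rats 25 and 26 also stood apart by their summed smooth muscle signal, 9.69 and 14.6 relative to the 75th percentile of the array, against 2.77 to 6.17 in the other 14 rats. Results that rest on rats 23, 25 or 26 are given without them below, and the part of the smooth muscle content in these results was not tested. The samples of a group were labelled as separate rats, each slide held 2 rats of every group, and each group filled 1 array column, so that column and group cannot be told apart. Changes in bulk tissue can come from the number of cells or from the RNA per cell, and fewer T cells cannot be told apart from less T cell RNA in each.

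The comparison of DSS-treated with untreated rats, pooled over genotype, asked which of the genes differed 36 days after DSS. Of the 10 genes, Cd2 and Prf1 rose and none fell, at an adjusted p of 0.05 or less in limma with the Benjamini-Hochberg method over all 30367 probes. Among all probes 10.2% were called higher and 6.99% lower, and 2 of 10 members is a share of the same order. The median change of the members was 0.38 on the log2 scale against 0.06 for all probes, and 8 of the 10 were above 0. In Pirc rats Cd2 alone of the members was called (8.14% of all probes higher, 6.51% lower), and in wildtype rats again Cd2 alone (2.94% higher, 0.899% lower). The median member change was 0.34 in Pirc rats and 0.67 in wildtype rats, against 0.04 and 0.09 for all probes, with 7 and 10 of the 10 members above 0. The plot of each member in each rat shows these levels.

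**Figure D1:**
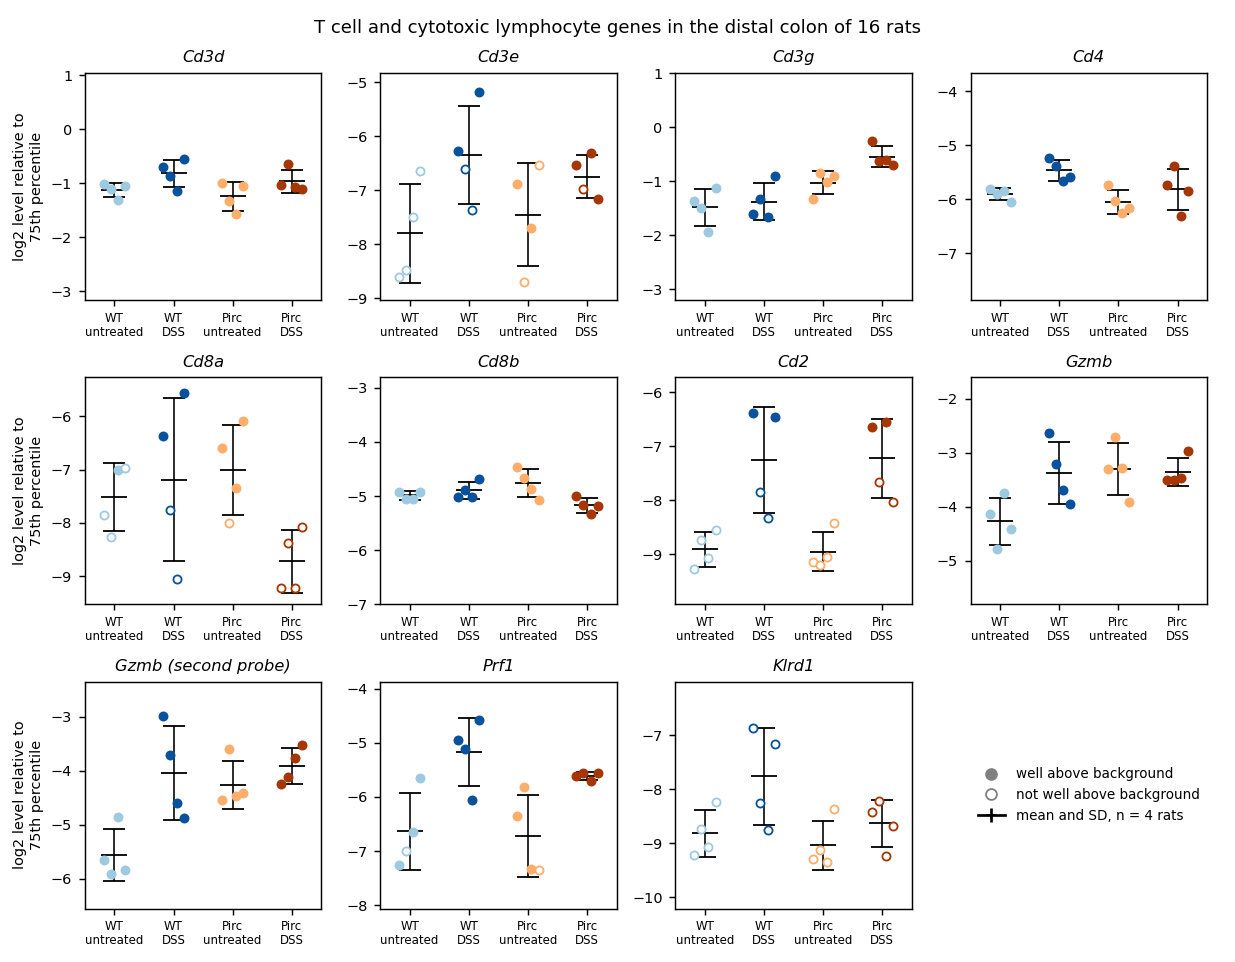
Level of each member probe in each of the 16 rats (vertical axis, log2 of the signal relative to the 75th percentile of the array; groups along the horizontal axis, 4 rats each; filled points well above background, open points not; bars mean and SD, n = 4). Cd2 and Prf1 lie higher in both DSS-treated groups, while Cd3g is highest in DSS-treated Pirc rats.

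Cd2, the adhesion receptor, rose after DSS in both genotypes. In untreated rats the transcript was not well above background on any array, with levels of -9.27, -9.06, -8.74 and -8.54 in wildtype and -9.19, -9.15, -9.05 and -8.42 in Pirc rats. After DSS the levels were -8.32, -7.85, -6.45 and -6.38 in wildtype and -8.03, -7.66, -6.65 and -6.55 in Pirc rats. Every DSS-treated rat lay above every untreated rat of its genotype, and in each genotype 2 of the 4 DSS-treated rats were well above background. The change was 1.69 on the log2 scale (SE 0.31, 95% interval 1.04 to 2.35, adjusted p = 0.00145). No fold is given, because neither the 8 untreated arrays nor 4 of the 8 DSS-treated arrays were well above background. In Pirc rats the change was 1.73 (SE 0.43, adjusted p = 0.0149) and in wildtype rats 1.65 (SE 0.43, adjusted p = 0.0477). The difference between genotypes was 0.08 (95% interval -1.23 to 1.39, adjusted p = 0.974). Within slide 1 and slide 2 the pooled change was 1.95 and 1.43.

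The Cd2 call depended on how dim signal was treated and, within genotypes, on single rats. With normexp background correction the pooled change was 0.40 (adjusted p = 0.0624), and with 1 common floor for dim values it was also 0.40 (adjusted p = 0.0902). The wildtype call was also lost with quantile normalisation (1.51, adjusted p = 0.0556), with slide or array row as a block (adjusted p = 0.0546 and 0.0587), with only the compared groups fitted (adjusted p = 0.103) and without moderation (adjusted p = 0.0795). In wildtype rats the call was lost in 12 of the 16 analyses that left out 1 rat, for example without rat 26 (1.39, adjusted p = 0.0899) and without rat 14 (1.36, adjusted p = 0.171), and in Pirc rats it was lost without DSS-treated rat 20 (1.51, adjusted p = 0.0569). With rats 25 and 26 both left out, by a choice made after seeing the data, the wildtype change was 1.51 (adjusted p = 0.123) and the pooled change 1.62 (adjusted p = 0.0043). Pooled over genotype the change was 1.56 without rat 26 (adjusted p = 0.00276) and 1.78 without rat 23 (adjusted p = 0.00178).

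Prf1, the perforin gene, rose by 1.29 on the log2 scale (SE 0.28, 95% interval 0.69 to 1.89), a 2.45-fold change (adjusted p = 0.00539). Its levels were -7.25, -7.00, -6.65 and -5.64 in untreated and -6.05, -5.11, -4.94 and -4.57 in DSS-treated wildtype rats. In Pirc rats they were -7.36, -7.34, -6.35 and -5.82 untreated and -5.71, -5.62, -5.55 and -5.55 after DSS. The Pirc groups did not overlap, whereas untreated wildtype rat 25 lay above the lowest DSS-treated rat. All 8 DSS-treated rats and 6 of the 8 untreated rats were well above background. Within each genotype the change missed the threshold, at 1.11 in Pirc rats (SE 0.40, adjusted p = 0.0796) and 1.47 in wildtype rats (SE 0.40, adjusted p = 0.0561). The wildtype change passed without untreated wildtype rat 25 (1.80, adjusted p = 0.0241), DSS-treated wildtype rat 22 (1.76, adjusted p = 0.0231) or untreated Pirc rat 15 (1.47, adjusted p = 0.0449), with a filter on dim probes, a common floor, array row as a block or probes averaged (adjusted p between 0.0344 and 0.0495), and the Pirc change passed without rat 15 (1.41, adjusted p = 0.0376). The pooled change was 1.19 without rat 26 (adjusted p = 0.0105), 1.18 without rat 23 (adjusted p = 0.0113), and 1.30 and 1.28 within the 2 slides. Its size depended on the processing, and across the 28 alternatives run it ranged from 0.48 to 1.46. With rats 25 and 26 both left out the pooled change was 1.36 (adjusted p = 0.0033), and the change passed in wildtype (1.60, adjusted p = 0.0402) and in Pirc rats (1.11, adjusted p = 0.0439). The difference between genotypes was -0.36 (95% interval -1.57 to 0.85, adjusted p = 0.878), and it turned from -1.60 within slide 1 to 0.88 within slide 2, as the Pirc change was 0.50 and 1.72 and the wildtype change 2.1 and 0.84.

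Gzmb, which encodes granzyme B, was measured by 2 probes that gave different calls. On its main probe, the brighter of the pair, wildtype levels were -4.78, -4.42, -4.13 and -3.75 untreated and -3.95, -3.69, -3.21 and -2.64 after DSS. Pirc levels were -3.91, -3.31, -3.29 and -2.72 untreated and -3.51, -3.50, -3.48 and -2.97 after DSS. The wildtype groups overlapped by 1 rat and the Pirc groups overlapped throughout. The change was 0.90 in wildtype rats (SE 0.30, adjusted p = 0.13) and -0.06 in Pirc rats (SE 0.30, adjusted p = 0.933).

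On the second Gzmb probe, wildtype levels were -5.91, -5.84, -5.65 and -4.86 untreated and -4.88, -4.60, -3.70 and -2.99 after DSS, again with 1 rat overlapping. The Pirc levels were -4.55, -4.47, -4.42 and -3.60 untreated and -4.24, -4.12, -3.76 and -3.52 after DSS. The transcript rose 2.88-fold in wildtype rats on this probe (1.53, SE 0.37, adjusted p = 0.0352) and 1.92-fold over both genotypes (0.94, SE 0.26, adjusted p = 0.023), while the Pirc change was 0.35 (adjusted p = 0.636). The wildtype call was lost without any of wildtype rats 13, 14, 17, 18 and 25 (adjusted p between 0.0800 and 0.113), and with quantile normalisation (1.34, adjusted p = 0.0661), normexp (0.79, adjusted p = 0.077), only the compared groups fitted (adjusted p = 0.113) or no moderation (adjusted p = 0.0632). The pooled call was lost without rat 18 (0.88, adjusted p = 0.0509) and with quantile normalisation (0.76, adjusted p = 0.0638). Without rat 26 the wildtype change on this probe was 1.81 (adjusted p = 0.0112). Averaged over both probes, Gzmb passed in wildtype rats (1.21, adjusted p = 0.0440). The difference between genotypes was -0.96 on the main probe (95% interval -1.88 to -0.04, adjusted p = 0.452) and -1.18 on the second (95% interval -2.31 to -0.05, adjusted p = 0.451), and neither passed after adjustment. It came from 1 slide on both probes, at -2.03 and -2.55 within slide 1 and 0.11 and 0.19 within slide 2.

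Klrd1 was not well above background on any array, so no fold is given. The measured change over both genotypes was 0.73 (adjusted p = 0.0864), and it passed without DSS-treated wildtype rat 22 (0.90, adjusted p = 0.0228) or rat 23 (0.84, adjusted p = 0.0498).

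None of the 3 CD3 chains was called for DSS. The pooled change was 0.29 for both Cd3d and Cd3g (adjusted p = 0.115 and 0.193) and 1.08 for Cd3e, and differences between the chains were not tested. Cd3d levels were -1.31, -1.10, -1.05 and -1.01 in untreated and -1.14, -0.86, -0.70 and -0.55 in DSS-treated wildtype rats, and -1.57, -1.33, -1.04 and -1.0 in untreated and -1.10, -1.07, -1.02 and -0.64 in DSS-treated Pirc rats. The groups overlapped in both genotypes. Cd3e, the chain that pairs with both others, was well above background on 7 of 16 arrays, of which 5 were from DSS-treated rats. Its pooled change (SE 0.38, adjusted p = 0.0673) passed with rats 25 and 26 both left out (1.08, adjusted p = 0.0449) and also without wildtype rat 22 (1.25, adjusted p = 0.0355), wildtype rat 25 (1.27, adjusted p = 0.0301) or Pirc rat 23 (1.23, adjusted p = 0.0397). Cd3e changed by 1.57 within slide 1 and 0.59 within slide 2.

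The Cd3g probe was the one among the members' main probes that differed between genotypes. Whether the Cd3g and Cd3d probes read only these transcripts was not tested, and their values are those of the probes. Its levels were -1.94, -1.49, -1.37 and -1.13 in untreated wildtype rats and -1.67, -1.60, -1.33 and -0.91 in DSS-treated wildtype rats. In Pirc rats they were -1.32, -1.02, -0.91 and -0.85 untreated and -0.70, -0.63, -0.60 and -0.26 after DSS. All 4 DSS-treated Pirc rats lay above the other 12 rats, whereas the wildtype groups overlapped each other, and untreated Pirc rats overlapped both. Over both treatments its signal was enhanced 1.56-fold in Pirc rats (0.64, SE 0.14, 95% interval 0.34 to 0.94, adjusted p = 0.00761), with 9.26% of all probes called higher and 8.27% lower in that comparison. Among DSS-treated rats it was 1.78-fold higher in Pirc (0.83, SE 0.20, 95% interval 0.40 to 1.25, adjusted p = 0.0113), with 9.47% of probes higher and 8.76% lower. Markers of other cells differed there too, with 5 of 13 colon epithelial genes called lower and 0 higher. Of B and plasma cell genes 3 of 8, and of neutrophil genes 2 of 8, were called higher and 0 lower. Their part in the Cd3g difference was not tested. In untreated rats the Cd3g difference was 0.45 (SE 0.20, adjusted p = 0.454).

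No member was called between untreated Pirc and untreated wildtype rats in limma, where 0% of probes passed and 3103 probes and 2 members had an unadjusted p under 0.05. The DSS change of Cd3g was 0.48 in Pirc rats (adjusted p = 0.129) and 0.10 in wildtype rats (adjusted p = 0.84), and the difference between these was 0.38 (95% interval -0.22 to 0.98, adjusted p = 0.669). Without rat 26 the Cd3g difference between genotypes was 0.72 over both treatments (adjusted p = 0.00399) and 0.98 in DSS-treated rats (adjusted p = 0.00603). Without rat 23 the former was 0.62 (adjusted p = 0.0148), and with rats 25 and 26 both left out these were 0.78 (adjusted p = 0.00332) and 0.98 (adjusted p = 0.0059). Within the slides the genotype difference was 0.68 and 0.61. Among DSS-treated rats the count of members called became 3 without wildtype rat 22, with Cd8a and Klrd1, and 2 without Pirc rat 16, with Cd4. Of these, Klrd1 was not well above background in either group and Cd8a on no array of DSS-treated Pirc rats, so that no direction is read from Klrd1. The neighbouring gene Cd3d gave -0.13 for Pirc against wildtype (adjusted p = 0.46).

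**Figure D2:**
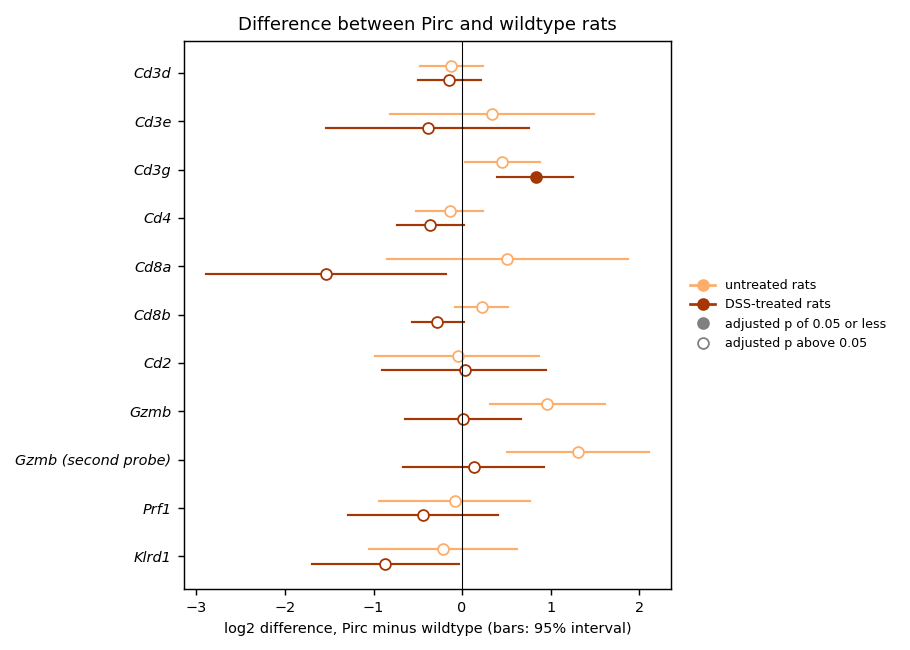
Pirc minus wildtype difference of each member probe (horizontal axis, log2) in untreated and in DSS-treated rats, with the 95% interval from limma (4 rats a group; filled at an adjusted p of 0.05 or less). Cd3g in DSS-treated rats, at 0.83, is the 1 filled point.

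Among the co-receptors, Cd4 levels were -6.05, -5.90, -5.85 and -5.81 in untreated and -5.66, -5.59, -5.38 and -5.23 in DSS-treated wildtype rats. In Pirc rats they were -6.25, -6.16, -6.03 and -5.74 untreated and -6.31, -5.85, -5.73 and -5.39 after DSS. The wildtype groups did not overlap and the Pirc groups did. The wildtype change was 0.44 (SE 0.18, adjusted p = 0.214), the Pirc change 0.22 (adjusted p = 0.485) and the pooled change 0.33 (SE 0.13, adjusted p = 0.0895). The pooled change passed without DSS-treated Pirc rat 20 (0.41, adjusted p = 0.0210) and with slide as a block (0.33, adjusted p = 0.0304).

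Both CD8 chains had negative estimates after DSS in Pirc rats, except Cd8a with normexp background correction (0.01). Cd8b levels were -5.07, -4.87, -4.66 and -4.47 in untreated and -5.34, -5.18, -5.16 and -5.00 in DSS-treated Pirc rats, overlapping by 1 rat, the untreated rat 23. The change was -0.40 (SE 0.14, 95% interval -0.70 to -0.11, adjusted p = 0.066), and it passed without rat 23 (-0.50, adjusted p = 0.0203) and with quantile normalisation (-0.61, adjusted p = 0.0111), a filter on dim probes (adjusted p = 0.0389), a common floor (adjusted p = 0.037) or no moderation (adjusted p = 0.0439). Across the 28 alternatives run, this change ranged from -0.61 to -0.06. In wildtype rats the Cd8b levels ran from -5.06 to -4.92 untreated and from -5.02 to -4.68 after DSS, a change of 0.09 (adjusted p = 0.815).

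Cd8a levels were -8.01, -7.34, -6.60 and -6.09 in untreated and -9.23, -9.22, -8.37 and -8.07 in DSS-treated Pirc rats, where no array was well above background. The Pirc groups did not overlap, and the change missed the threshold (-1.72, SE 0.63, 95% interval -3.07 to -0.36, adjusted p = 0.088). It passed without DSS-treated wildtype rat 22 (adjusted p = 0.0395), was -1.41 without rat 23 (adjusted p = 0.179) and was 0.01 with normexp background correction. Wildtype Cd8a levels ran from -8.26 to -6.97 untreated and from -9.05 to -5.57 after DSS, and the change of 0.33 (adjusted p = 0.84) became -0.21 without rat 26. The difference of DSS changes, Pirc minus wildtype, was -2.05 for Cd8a (95% interval -3.97 to -0.13, adjusted p = 0.44) and -0.50 for Cd8b (95% interval -0.92 to -0.08, adjusted p = 0.39), and was below 0 within each slide for both. Across the alternatives run, it ranged from -2.67 to -0.23 for Cd8a and from -0.60 to -0.15 for Cd8b. The Cd8a values rest in part on signal not well above background, so that their size is not exact.

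**Figure D3:**
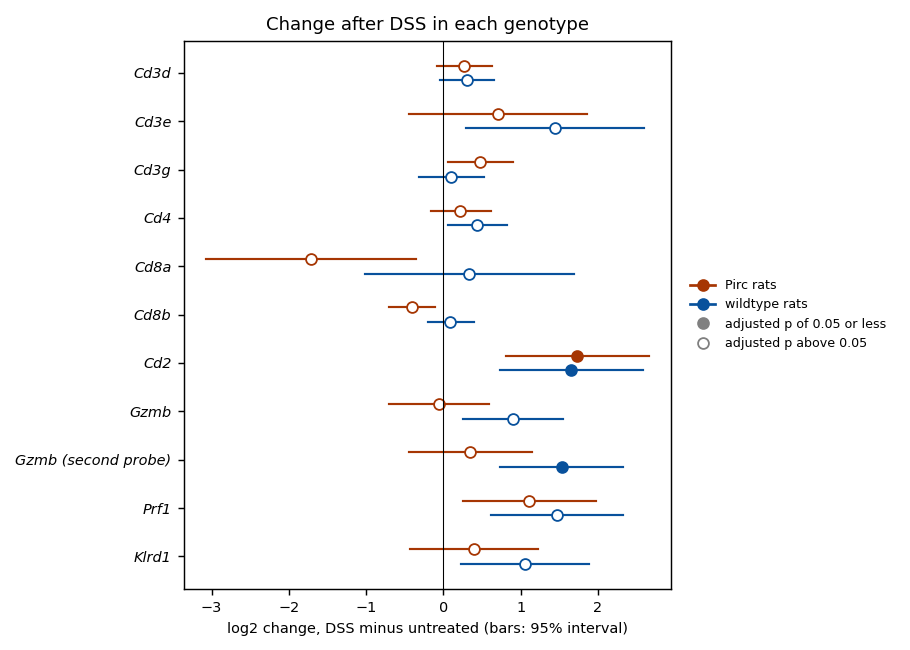
DSS minus untreated change of each member probe (horizontal axis, log2) in Pirc and in wildtype rats, with the 95% interval from limma (4 rats a group; filled at an adjusted p of 0.05 or less). Cd2 lies at 1.73 and 1.65 in the 2 genotypes, and Cd8a lies at -1.72 in Pirc and 0.33 in wildtype rats, neither of them filled.

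The difference of the DSS change between genotypes was called for none of the 10 members in limma. It was called for 13 probes in all, 0.0428% of those tested, although 3234 probes and 3 members (Cd8a, Cd8b and Gzmb) had an unadjusted p under 0.05. In simulated data of this design 18% of probes given a difference of 1 log2 unit and 71% of those given 2 were recovered. The simulation changed 100 probes by each size, left the others unchanged and drew the noise of each probe independently. Recovery depends on how many probes change, and other numbers of changed probes were not tried. Counted by overlap alone, 4 members had separate DSS-treated and untreated groups in Pirc rats (Cd2, Cd3g, Cd8a and Prf1) and 2 in wildtype rats (Cd2 and Cd4), with 16.9% and 12.4% of all probes separate. Pirc and wildtype rats were separate for Cd3g after DSS (18.8% of all probes) and for no main probe of a member without it (8.72%), although the second Gzmb probe was separate there, at 1.31 higher in untreated Pirc rats (SE 0.37, adjusted p = 0.272).

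The members varied together only loosely across rats. Over the 16 rats, 35 of 45 pairs of members had a positive Pearson correlation, with a median of 0.26 and a range from -0.34 to 0.78. Cd3e and Cd2 had r = 0.77 (rho = 0.84), Cd2 and Prf1 had 0.73 (rho = 0.75), Cd3d and Klrd1 had 0.78 (rho = 0.64), and Cd8a and Cd8b had 0.48. Cd3d and Cd3g, whose start sites are neighbours, had 0.13. Within groups, in the order of these 5 pairs, the correlations were 0.66, 0.29, 0.66, 0.12 and 0.31. These are descriptions of arrays that share 4 group means and, in part, dim signal. Klrd1 was not well above background on any array, so its correlation with Cd3d is not that of a detected transcript. The genes most like the mean of Cd3d and Cd3g among 10358 compared over the 16 rats were Haus3 (r = 0.88), Rpn2 (0.88), Chid1 (0.87), Galk1 (0.87) and Txndc17 (0.86), and none of these 5 is a T cell gene in the lists used here.

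The wider T cell programme was described with 3 lists of related genes. Of 27 listed genes of T cell receptor signalling, 21 were measured and 8 were well above background on all arrays. Over both genotypes 8 rose and 1 fell (Rasgrp1, an activator of Ras named after its value was seen, -1.11), with a median of 0.57 against 0.06 for all probes, and 4 rose in each genotype. Ptprcap, which binds the phosphatase CD45, rose by 0.99 (adjusted p = 0.00182), at 1.34 in wildtype rats (adjusted p = 0.0117, lost with normexp at 0.68 and with only the compared groups fitted) and 0.63 in Pirc rats (adjusted p = 0.126). Zap70, the kinase that docks on phosphorylated CD3 chains, rose by 0.57 (adjusted p = 0.0143). The number called higher became 2 in wildtype rats without any of rats 14, 18 and 21, and in Pirc rats 2 without rat 15 and 7 with wildtype rats 25 and 26 both left out. With normexp correction none of the list was called higher within either genotype.

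Of 39 listed genes of cytotoxic and natural killer cells, 35 were measured and 15 were well above background on all arrays. Over both genotypes 13 rose and none fell (median 0.30), with 5 higher in Pirc rats (median 0.13) and 10 higher in wildtype rats (median 0.78), which became 6 without wildtype rat 18. Srgn, the proteoglycan that packs granule proteins, rose by 1.99, Tyrobp, a signalling adaptor of natural killer and myeloid cells, by 1.79, Hcst, the adaptor of NKG2D, by 1.45, and Unc13d, which primes granules for release, by 1.28. Unc13d was not called in wildtype rats (1.18, adjusted p = 0.166). Its call in Pirc rats (1.39, adjusted p = 0.0447) was lost in 11 of the 16 analyses without 1 rat. Srgn and Tyrobp are also expressed by macrophages and other myeloid cells.

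Gzmc, another granzyme, had wildtype levels of -3.91, -3.83, -3.58 and -3.01 untreated and -2.71, -1.88, -1.12 and -0.55 after DSS. Its Pirc levels were -2.62, -2.45, -2.42 and -1.23 untreated and -2.0, -1.88, -1.50 and -1.50 after DSS. The wildtype groups did not overlap, and untreated Pirc rats lay above all untreated wildtype rats. Gzmc rose by 2.02 in wildtype rats (adjusted p = 0.0131) and changed by 0.46 in Pirc rats (adjusted p = 0.539). The wildtype call was lost without rat 18 (1.87, adjusted p = 0.0519) and with only the compared groups fitted (adjusted p = 0.0654), and the pooled change of 1.24 became 0.98 (adjusted p = 0.0521) with the probes of a gene averaged. The difference of DSS changes was -1.56 (SE 0.57, adjusted p = 0.352), at -3.01 within slide 1 and -0.11 within slide 2. Gzma, chosen after its values were seen, gave a wildtype change of 1.38 (adjusted p = 0.0445), a Pirc change of 0.15 (adjusted p = 0.875) and a difference of -1.23 (adjusted p = 0.408), and its wildtype call was lost in 12 of the 16 analyses without 1 rat.

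Of 33 listed genes of helper, regulatory and homing functions, 31 were measured and 11 were well above background on all arrays. Over both genotypes 14 rose and none fell (median 0.59), with 15 higher in Pirc rats and 7 in wildtype rats, the latter becoming 4 without wildtype rat 14 and 11 without rat 22. Itgb7, the integrin chain that homes lymphocytes to the gut, rose by 1.92, Ccr6, a chemokine receptor of interleukin 17-producing T cells and B cells, by 1.66, and Il7r, the interleukin 7 receptor chain, by 1.26. Across the alternatives run, these changes ranged from 1.13 to 2.03, from 0.84 to 1.76 and from 0.58 to 1.55, in the same order. Pirc and wildtype changes were 1.92 and 1.93 for Itgb7, 1.71 and 1.61 for Ccr6, and 1.45 and 1.06 for Il7r. The adjusted p of Il7r in wildtype rats was 0.0502, and it passed in 4 of the 16 analyses without 1 rat and in 5 other alternatives.

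The list held 6 interleukins, Il2, Il4, Il10, Il17a, Il17f and Il22, described here together after their values were seen. Il2 and Il4 were not well above background on any array and were not called. In Pirc rats Il10, Il17a, Il17f and Il22 were called higher after DSS (adjusted p = 2.37e-04, 0.0048, 0.0437 and 4.14e-04), and in wildtype rats none of the 6 was. Il22, which acts on epithelial cells, lay at -6.88, -6.33, -5.33 and -4.60 in DSS-treated Pirc rats and between -8.96 and -8.14 in the other 12 rats, where it was not well above background. Il17a was well above background on all 4 DSS-treated and no untreated Pirc array, and its mean after DSS was at least 6.43-fold above the lowest signal well above background on the untreated arrays. Il22 was well above background on 3 and Il17f on 1 of the 4 DSS-treated Pirc arrays, and no fold is given for these. With normexp correction the changes in Pirc rats were 1.80 for Il10 (adjusted p = 0.00106), 0.85 for Il17a (adjusted p = 0.0258), 0.72 for Il22 (adjusted p = 0.0178) and 0.40 for Il17f (adjusted p = 0.261). No gene of the 3 lists was called for the difference of DSS changes between genotypes. For Pirc against wildtype over both treatments, the cytotoxic list had 4 of 35 genes higher and 1 lower. The helper list had 5 of 31 higher and 0 lower, and of all probes 9.26% were higher and 8.27% lower. Among DSS-treated rats the cytotoxic list had 1 higher and 2 lower and the helper list 5 higher and 0 lower. Of all probes 9.47% were higher and 8.76% lower there. The cytotoxic counts lie near or below these shares, and differences from the shares were not tested. Receptor signalling had 0 called in both comparisons.

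**Figure D4:**
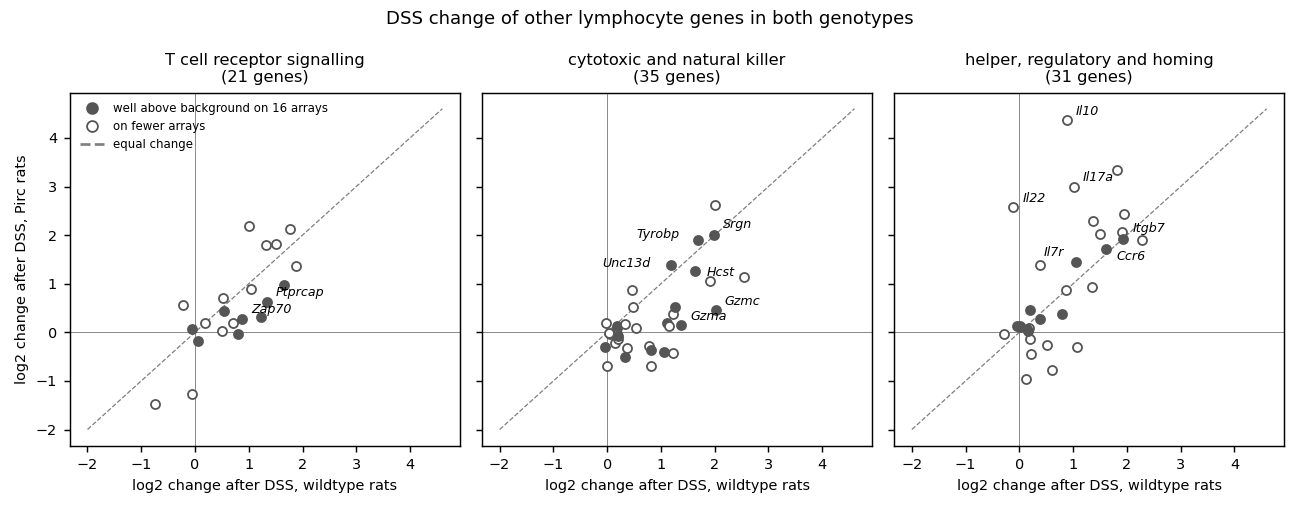
DSS change in wildtype rats (horizontal axis, log2) against DSS change in Pirc rats (vertical axis, log2) for the 21, 35 and 31 measured genes of the 3 lists (filled when well above background on all 16 arrays; dashed line, equal change). Gzmc, at 2.02 and 0.46, lies below the line and Il22, at -0.11 and 2.58 with dim signal in 13 of the 16 rats, above it.

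Markers of other cells moved with DSS as well, and their part in the changes of the T cell genes was not tested. Of 8 measured genes shared by all leukocytes, 6 rose over both genotypes, among them Ptprc (CD45, 1.90) and Cd53 (2.07), and 5 rose in each genotype. Their summed signal, relative to the 75th percentile of the array, had a median of 6.52 in untreated and 9.34 in DSS-treated wildtype rats and of 6.57 and 10.6 in Pirc rats, with Ptpn6 the brightest over all 16 rats. The summed signal of the 10 members had medians of 0.968 (0.814 to 1.08) and 1.2 (0.925 to 1.45) in untreated and DSS-treated wildtype rats and 1.14 (0.999 to 1.18) and 1.39 (1.29 to 1.51) in Pirc rats. Cd3d had the highest mean level over the 16 rats, although Cd3g was the brighter in all 4 DSS-treated Pirc rats. Cd3d alone made up 32.7% to 50.4% of that sum, so that it mainly follows the bright probes and says little of the dim members. Each of these sums adds the signals of different probes, and the gene called brightest is the one with the highest mean log2 level over the 16 rats, which did not lead in every group.

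Of 14 macrophage and monocyte genes, 10 rose over both genotypes and 8 in each (3 to 5 in wildtype rats without any of rats 14, 17, 18, 21 and 25), and the summed medians went from 13.5 to 23.1 in wildtype and from 17.2 to 29.2 in Pirc rats (brightest Cd14). Of 8 neutrophil genes 4 rose, with sums of 0.603 and 3.58 in wildtype and 1.11 and 24.8 in Pirc rats (brightest S100a9). Of 8 B and plasma cell genes 6 rose in the pooled comparison, 5 in Pirc rats and 0 in wildtype rats, with sums of 0.822, 0.924, 0.726 and 1.01 in untreated wildtype, DSS-treated wildtype, untreated Pirc and DSS-treated Pirc rats (brightest Pax5). Of 9 mast cell genes 5 rose (sums 0.176, 0.446, 0.2 and 0.464 in the same order, brightest Kit over all 16 rats, although Kit made up a minor share after DSS), and of 6 dendritic cell genes 2 rose and 1 fell, Cd83 by 1.18 on the log2 scale, with none called in wildtype rats (1.14, 0.746, 1.12 and 0.511, brightest Cd83). All 8 fibroblast and matrix genes rose, with sums of 1.56, 6.15, 2.26 and 8.12 (brightest Col1a2), as did 4 of 6 endothelial genes (0.442, 0.815, 0.4 and 0.935, brightest Pecam1). Within Pirc and wildtype rats, 8 and 6 of the fibroblast and matrix genes and 4 and 1 of the endothelial genes were called higher. Of 7 smooth muscle genes 1 rose and 1 fell (medians 4.27, 3.88, 3.54 and 3.16, with rats 25 and 26 apart as given above, brightest Smtn), and of 13 colon epithelial genes 1 rose and 1 fell (486, 581, 485 and 469, brightest Krt19). Epcam, Cdh1 and Krt8, which define the colonic epithelium, were well above background on all 16 arrays, and changed by -0.42, -0.04 and -0.12 in Pirc rats (adjusted p = 0.0215, 0.894 and 0.689) and by 0.28, 0.32 and 0.36 in wildtype rats, none of which passed. The gene that rose in the pooled comparison was Car4 and the one that fell Slc26a3, both named after their values were seen. Slc26a3 ran from 2.73 to 4.27 in untreated and from 1.24 to 2.25 in DSS-treated Pirc rats. In wildtype rats it ran from 3.52 to 4.62 and from 3.97 to 4.29, and no epithelial gene was called there. The median change of the epithelial genes was 0.03 in Pirc and 0.28 in wildtype rats. Of the defining markers of the other leukocytes, Cd68 rose by 1.61 (adjusted p = 3.66e-05) and S100a8 by 3.57 (adjusted p = 7.30e-05), and Csf1r changed by 0.27 (adjusted p = 0.41).

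**Figure D5:**
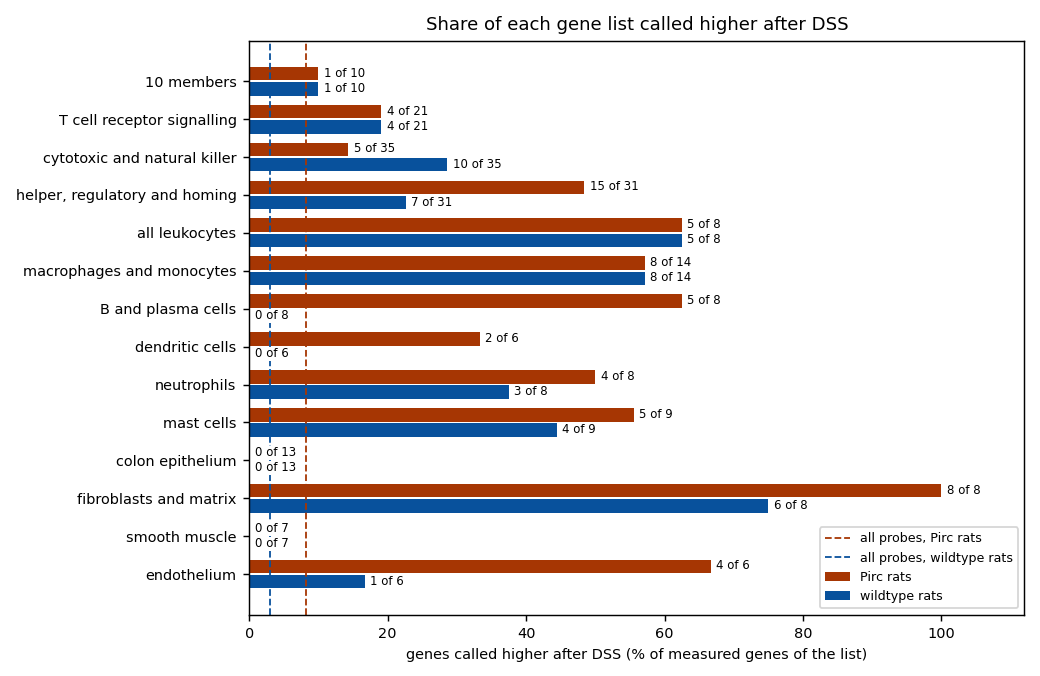
Share of the measured genes of each list called higher after DSS (percent, bars from 0) in Pirc and in wildtype rats, with dashed lines at the 8.14% and 2.94% of all probes called higher in the same comparisons. The members are at 1 of 10 in each genotype. The epithelial and smooth muscle lists are at 0 in both genotypes, as the B cell and dendritic lists are in wildtype rats. Each of the remaining shares lies above that of the members in the same genotype. Differences between lists were not tested.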

How the data were processed

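Total RNA of normal distal colon from 16 rats (4 a group, by the labels) was hybridised to single-colour Agilent arrays, and per the file headers Agilent Feature Extraction 10.7.3.1 produced the deposited intensity values, of which the authors' processed signal is background-subtracted. The submitters' notes name Partek, whose output was not used here. Each array had 62976 spots, of which 4259 controls and spots marked as outliers were left out. The log2 intensity was set against the array's 75th percentile, spots of a probe were averaged, and 30367 probes were fitted with limma 3.58.1 in R 4.3.3 (1 mean per group, 7 comparisons, Benjamini-Hochberg, threshold on the adjusted p 0.05). Where all spots of a probe on an array were marked (25 values) they were kept. A probe was well above background when at least 0.5 of its spots on the array were. Accessions gave 18006 probes a symbol through RefSeq (15159 genes), and 12361 stayed unnamed. A gene's main probe was the one well above background on most arrays, ties going to the brighter.

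The members and lists were chosen with earlier results of these data known. Beside all members, the text names from each pathway list up to 3 called genes with the largest change among those well above background on all arrays, from each cell type list its brightest gene and defining markers, and the 5 genes most like Cd3, except that 2 genes the rule takes are not reported here. The array is not a count of molecules, and its precision is limited by 4 rats a group. On simulated data, 47% of probes changed by 1 log2 unit and 84% of those changed by 2 were recovered for DSS in Pirc rats among 30367 probes, with 1 other call. Only 100 probes were changed by each size there, whereas 4451 were called in the real comparison, so these shares hold for the simulated setting. Alternatives changed the normalisation (quantile, median scaling), background (normexp with offset 50), dim probes (filter, floor), blocks (slide, array row), outlier spots, arrays fitted, moderation, thresholds and probe averaging, and left out each rat in turn. No 2 arrays were identical (highest correlation 0.993).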

Additional observations from a re-analysis of the deposited data

Results flagged for a closer look

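Each of the 11 member probes was examined in each of the 4 groups for a rat far from the other 3, and 2 of 44 groups passed Dixon's 95% critical value for 4 samples, where chance flags about 1 in 20. On the second Gzmb probe, untreated Pirc rat 15 lay at -3.60 while the other 3 untreated Pirc rats lay between -4.55 and -4.42. On the main Gzmb probe, DSS-treated Pirc rat 24 lay at -2.97 while the others lay between -3.51 and -3.48. Both rats were the highest of their group for that probe.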

How the results depend on the processing

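The count of called members moved with the settings as follows. With quantile normalisation it was 2 for DSS in Pirc rats (Cd2 and Cd8b), 0 in wildtype rats, and 2 (Cd3g and Cd4) for Pirc against wildtype both over all rats and after DSS. With normexp it was 1 (Prf1) over both genotypes and 0 within each, and with a filter on dim probes or a common floor it was 1 (Prf1). The wildtype count was 0 with slide as a block, with only the compared groups fitted and without moderation, which gave 2 in Pirc rats, and 3 with probes averaged. A minimum of a factor of 2 left 0 for both Pirc comparisons. An adjusted p of 0.20 gave 7 for DSS over both genotypes, 5 within either genotype and 4 and 5 for Pirc over all rats and after DSS. That looser threshold also calls more of all probes, a share not given here, so these counts are not read as particular to the members. Leaving out 1 rat gave 2 to 4 for DSS over both genotypes (4 without rat 22 or 23), 0 to 2 in Pirc rats (0 without rat 20, 2 without rat 15, 22 or 23), 0 to 3 in wildtype rats (3 without rat 22, 0 in 10 others), 1 to 1 and 1 to 3 for Pirc over all rats and after DSS, and 0 for untreated rats and for the difference. The Cd3g calls and the pooled Prf1 call kept their direction and side of the threshold in all alternatives that refitted them. None of the reversed values passed the test: Cd8a in wildtype rats -0.02 and Cd8b -0.12 (quantile), Cd8a over both genotypes 0.13 (normexp) and 0.01 (floor), Cd8b 0.02, Cd8a and Gzmb in Pirc rats 0.01 and 0.01 (normexp), Gzmb 0.15 and Gzmc -0.04 (probes averaged), and Gzmb for Pirc after DSS -0.05 and, second probe, -0.06 (normexp). For the difference of DSS changes these were Cd2 -0.02 (quantile) and -0.09 (floor), Cd4 0.02 and Klrd1 0.04 (normexp), Ptprc 0.15 and Itgb7 0.22 (normexp), Itgb7 0.03 (quantile) and 0.02 (median scaling). Leaving out 1 rat reversed Cd3g (-0.05 to 0.22) and Cd8a (-0.21 to 0.95) in wildtype rats, Gzma (-0.02 to 0.39) and Gzmb (-0.26 to 0.14) in Pirc rats, Prf1 in untreated rats (-0.38 to 0.25), Gzmb after DSS (-0.18 to 0.25, second probe -0.15 to 0.48), and the difference for Cd2 (-0.28 to 0.37), Cd3d (-0.14 to 0.06), Ccr6 (-0.05 to 0.30), Cd53 (-0.25 to 0.28), Itgb7 (-0.22 to 0.17), Ptprc (-0.40 to 0.09), Srgn (-0.32 to 0.27) and Unc13d (-0.14 to 0.60). The counts of the lists and their named genes were run under these settings by a choice made after seeing the data. With normexp the count called higher within wildtype rats became 0 for receptor signalling, 5 for the cytotoxic list and 2 for the helper list. With wildtype rats 25 and 26 both left out, also chosen after seeing the data, the count in Pirc rats was 2 (Cd2 and Prf1), and reversed values were Cd8a in wildtype rats -0.02, Prf1 in untreated rats 0.25, Gzmb after DSS -0.18 (second probe -0.15), and the difference for Srgn -0.11, Itgb7 0.03, Cd53 -0.05 and Cd3d 0.03. The causes were not tested. Under normexp the pooled DSS change over all probes had a median of 0.15. No paired analysis was possible because no rat number occurs in more than 1 group. Klrd1, and Cd2, Cd3e and Cd8a in part, are limited by signal near background.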
